A study of Mus musculus with 9 samples.

Results

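The interferon-stimulated genes described here are 36 genes of the 22054 in the expression table, out of 37 listed by symbol as genes induced by type I interferon. The list used gene names and no measured value, but it was drawn up with earlier results of these data known. Mx2, the remaining gene of the list, is not analysed here. Guanylate-binding proteins and genes of the major histocompatibility complex, which interferon gamma also induces, were left out of the list. All 36 genes passed the filter on low counts in every comparison.

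RNA was measured in fracture callus, the repair tissue that bridges a broken bone, taken from the femur of male C57BL/6J mice on day 7 after surgery. The sample labels give an age of 7 weeks. All mice had the fracture, with a needle in the marrow cavity for fixation, and all were injected intraperitoneally with 200 μl every day for a week. The H-151 group received 750 nmol of H-151, a small molecule that binds STING and blocks its signaling. The SR-717 group received 30 mg/kg of SR-717, a small molecule that activates STING in place of its natural ligand cGAMP. The PBS group received buffer. No allele was altered in any group. Each group had 3 libraries, and the labels number them 1 to 3 in each group without saying what a number stands for or whether each library came from a separate mouse. The p-values therefore measure the spread between these libraries, which may be technical in part.

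STING is an adaptor in the membrane of the endoplasmic reticulum that responds to DNA in the cytosol through the second messenger made by cGAS. Activated STING recruits the kinase TBK1, which phosphorylates IRF3, and IRF3 switches on the gene for interferon beta. Secreted type I interferon then binds its receptor on the same and neighbouring cells, and the kinases JAK1 and TYK2 activate the transcription factor complex ISGF3. ISGF3 binds the interferon-stimulated response element (ISRE) in the promoters of genes such as those described here, whose products mostly sense, modify or degrade viral nucleic acid or block the entry and release of virus. In bone, type I interferon is known to restrain the formation of osteoclasts from their precursors.

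The promoters of several of these genes are shown because they carry the element through which the genes are known to be induced together. Promoter windows of 250 bases before to 50 bases after the start site were taken from RefSeq for the build GRCm38.p6, and 26 of the genes had one. Dhx58, Rtp4, Usp18, Mx1, Zbp1, Ifi27, Oas2, Parp9, Parp14 and Ifi204 had none. The core searched was GAAA followed, after any 2 bases, by GAAA again, on either strand (TTTC, any 2 bases, TTTC when read on the other strand), and overlapping matches were allowed. It was found in the windows of 12 of the 26 genes (46.2%) and of 3.99% of all 27025 genes with a window. The stretches of 9 genes are printed. Each reads 5′ to 3′ on the strand of its gene, and capitals mark the ISRE matches, joined where they overlap. A match is a description of these letters and not evidence of binding.
Isg15 (chr4:156200855-156200916, minus strand): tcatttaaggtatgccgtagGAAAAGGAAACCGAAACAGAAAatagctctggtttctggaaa
Bst2 (chr8:71537567-71537622, minus strand): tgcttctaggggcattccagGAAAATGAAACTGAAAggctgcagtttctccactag
Ifit1 (chr19:34640765-34640833, plus strand): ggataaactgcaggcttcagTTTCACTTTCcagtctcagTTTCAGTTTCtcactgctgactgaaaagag
Ifit3 (chr19:34583353-34583436, plus strand): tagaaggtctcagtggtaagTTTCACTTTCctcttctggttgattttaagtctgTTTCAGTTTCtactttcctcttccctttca
Ifit3b (chr19:34607749-34607832, plus strand): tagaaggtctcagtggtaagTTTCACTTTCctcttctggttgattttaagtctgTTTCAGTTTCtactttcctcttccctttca
Oas1a (chr5:120907526-120907565, minus strand): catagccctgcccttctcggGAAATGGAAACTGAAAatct
Oas3 (chr5:120777705-120777754, minus strand): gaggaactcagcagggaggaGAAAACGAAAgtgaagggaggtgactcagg
Rsad2 (chr12:26456543-26456592, minus strand): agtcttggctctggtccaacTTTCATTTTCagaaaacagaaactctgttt
Trim30a (chr7:104465200-104465249, minus strand): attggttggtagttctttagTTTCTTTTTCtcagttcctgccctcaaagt

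The stretches of Ifit3 and Ifit3b were identical at 84 of 84 positions. The genes themselves are near-identical neighbours, and both had counts that were not whole, so reads may have been divided between them. In all, 9 of the 36 genes had such counts, and the values of these genes (Dtx3l, Ifi204, Ifit3, Ifit3b, Oas1a, Oas3, Parp9, Trim30a and Xaf1) carry that uncertainty.

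Libraries held between 16987398 and 23272480 expected counts. A principal component analysis placed SR-717 replicate 1 at 100.6 and PBS replicate 1 at 38.8 on the first component, which held 46.6% of the variance. The other 7 libraries lay between -28.8 and -4.03. Markers of bone were abundant in all 9 libraries, with the 6 genes together at 24800 to 47600 CPM, a count scaled to a common library total. Col1a1 made up most of this sum (21130 to 41330 CPM). The mean log2 CPM of the 6 genes was lowest in SR-717 replicate 1, at 9.21, and lay between 9.96 and 11.04 in the other libraries. The summed level of 6 cartilage markers was 235 CPM in SR-717 replicate 1, against 9080 and 4460 CPM in SR-717 replicates 2 and 3. It was 1530 CPM in PBS replicate 1, against 16000 and 9380 CPM in PBS replicates 2 and 3, and at least 5390 CPM in every H-151 library. Because SR-717 replicate 1 and PBS replicate 1 stand apart from the rest of their groups, results that rest on either are given with and without it.

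Together the 36 genes took up between 0.0739% and 0.225% of the counts of a library. Per length, in TPM, which scales for gene length, Ifitm3 was the most abundant, with a median over the libraries of 514 TPM and no library below 379 TPM, above the highest value of any other of the 36. It was followed by Lgals3bp at 168 TPM, Ifi27 at 155 TPM and Bst2 at 123 TPM, whose ranges overlap. At the other end stood Ifit1 at a median of 1.497 TPM, Ifi44 at 1.78 TPM, Ifit2 at 1.89 TPM, Herc6 at 1.96 TPM and Mx1 at 2.05 TPM, also with overlapping ranges. Ifitm3 encodes a membrane protein that blocks the fusion of enveloped viruses, and Ifit1 encodes a protein that binds viral RNA lacking a methylated cap.

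The genes of type I and type III interferons were hardly detected. Of 19 type I and type III interferon genes in the table, 18 had a count of 0 in every library, among them Ifnb1 and all 13 interferon alpha genes. A count of 0 allows up to 3 counts, which is 0.129 CPM in the deepest library and 0.177 CPM in the shallowest, and this limit covers counting error only. Ifnz was the exception, with 1.07 to 13.9 expected counts in a library. Interferon gamma is not among these ligands. Its gene Ifng had 22 counts in SR-717 replicate 1 and at most 2 in any other library, and its part was not tested.

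The heat map of all 36 genes shows how they varied among themselves. The mean log2 CPM of the genes was 4.95, 4.19 and 3.47 in PBS replicates 1, 2 and 3. The same mean was 4.42, 3.68 and 3.74 in the H-151 replicates and 5.41, 4.08 and 3.63 in the SR-717 replicates. In each group the library numbered 1 was therefore the highest, and the libraries numbered 2 and 3 lay between 3.47 and 4.19 whatever the treatment. SR-717 replicate 1 was the highest of the 9 libraries for 27 genes, PBS replicate 1 for 8 and PBS replicate 3 for 1, Ifi27. PBS replicate 3 was the lowest for 18 genes.

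**Figure D1:**
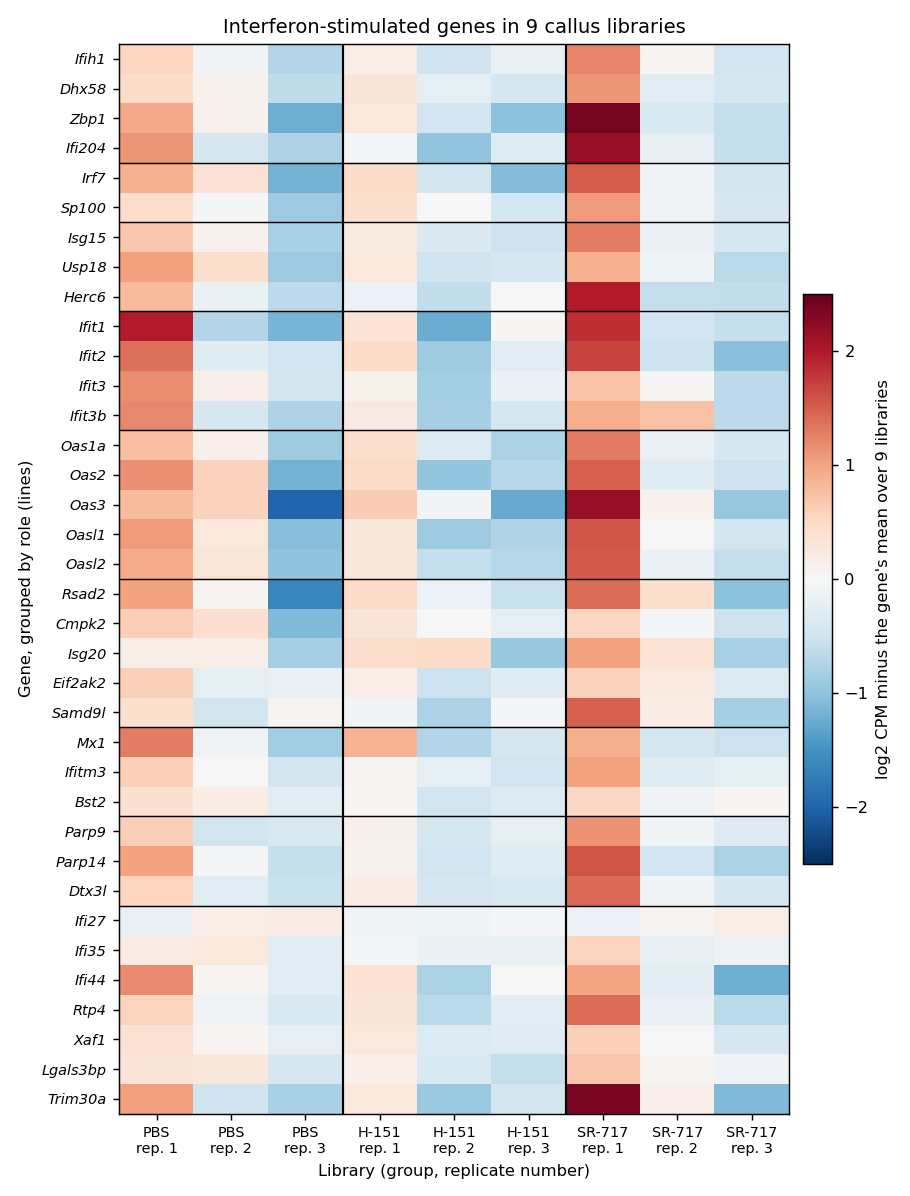
Level of each of the 36 interferon-stimulated genes (rows, ordered by role, with lines between roles) in each of the 9 libraries (columns), as log2 CPM minus the gene's mean over the libraries. SR-717 replicate 1 and PBS replicate 1 are red in most rows, whereas Ifi27 is nearly colourless throughout.

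The first comparison asked whether the STING agonist changed the level of these genes relative to PBS. No gene of the 36 passed an unadjusted p of 0.05 in edgeR's quasi-likelihood test, and none passed an adjusted p of 0.05, in either direction. None did so with DESeq2 or with limma voom either. Over all 14070 genes tested, 0.689% had an unadjusted p under 0.05 in edgeR, and 0.270% were higher and 0.249% lower at that p and a fold change of at least 1.5. The log2 fold change was above 0 for 29 of the 36 genes (52.2% of all genes), with a median of 0.28 (0.01 for all genes) and a range of -0.35 to 1.02. The median standard error of a member was 0.58, so that the typical change was smaller than its error. The adjusted p of edgeR was 1 for each of the 36 genes, and the values of single genes follow by role. For no gene did the SR-717 libraries lie wholly above or below the PBS libraries, whereas 1.49% of all genes lay wholly above and 2.26% wholly below.

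The direction of this comparison rested on single libraries. With the library weights of limma voom, 10 of the 36 genes were above 0 and the median was -0.16. Without SR-717 replicate 1 the median was -0.44 and 1 of the 36 genes was above 0. Without PBS replicate 1 the median was 0.74 and 35 were above 0, and without PBS replicate 3 it was -0.04. When libraries were blocked by number, 443 of all genes passed p and fold in place of 73. Of the 36, 1 gene, Rsad2, reached an unadjusted p of 0.05 in edgeR at less than 1.5-fold, against 3.8% of all genes under that p.

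The second comparison asked the same of the STING inhibitor. H-151 and PBS share the PBS libraries with the comparison above. Again no gene of the 36 passed an unadjusted or an adjusted p of 0.05 in edgeR, DESeq2 or limma voom. Of all 14085 genes, 0.646% passed an unadjusted p of 0.05 in edgeR, with 0.263% higher and 0.163% lower past p and fold. The log2 fold change was below 0 for 34 of the 36 genes and above 0 for Sp100 and Isg20, where 44.2% of all genes were above 0. The median was -0.31 (-0.02 for all genes), the range was -0.87 to 0.23 and the median standard error was 0.43. The adjusted p of edgeR was again 1 for each gene. The libraries of the groups overlapped for every one of the 36, against 1.56% of all genes wholly higher and 2.31% wholly lower.

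Here PBS replicates 1 and 3 decided the size and sign. Without PBS replicate 1 the median was 0.10 and 25 of the 36 genes were above 0. Without PBS replicate 3 the median was -0.61, and 7 of the 36 genes fell under an unadjusted p of 0.05 in edgeR (1.61% of all genes). These were Bst2, Ifit3, Oas2, Oasl1, Oasl2, Parp14 and Usp18, of which 6 were also past 1.5-fold. When libraries were blocked by number, 262 of all genes passed p and fold in place of 60, but none of the 36 had an unadjusted p under 0.05 (3.06% of all genes).

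The third comparison set the agonist against the inhibitor, using the same libraries once more. Without a replicate block, none of the 36 genes passed an unadjusted or an adjusted p of 0.05 in edgeR, DESeq2 or limma voom. The block is given in the closing section, where some passed the unadjusted p. Of all 14151 genes, 1.03% passed an unadjusted p of 0.05 in edgeR, with 0.367% higher and 0.389% lower past p and fold. All 36 log2 fold changes were above 0 (53.4% of all genes), with a median of 0.58 (0.02 for all genes), a range of 0.01 to 1.46 and a median standard error of 0.55. The adjusted p of edgeR was at least 0.996 for each gene. With the library weights of limma voom, 14 of the 36 were above 0 and the median was -0.068. At least 1.5-fold higher means were seen for 17 genes, but the libraries of the groups overlapped for all 36, against 2.67% of all genes wholly higher and 2.51% wholly lower. Without SR-717 replicate 1 the median was -0.12 and 8 genes were above 0. Without SR-717 replicate 3 it was 0.89, and 4 genes (Ifi204, Ifit3b, Samd9l and Trim30a) passed an unadjusted p of 0.05 and 1.5-fold in edgeR. Of all genes, 5.27% were under that p in this refit. Without H-151 replicate 1, Lgals3bp passed both, and 0.719% of all genes were under that p.

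**Figure D2:**
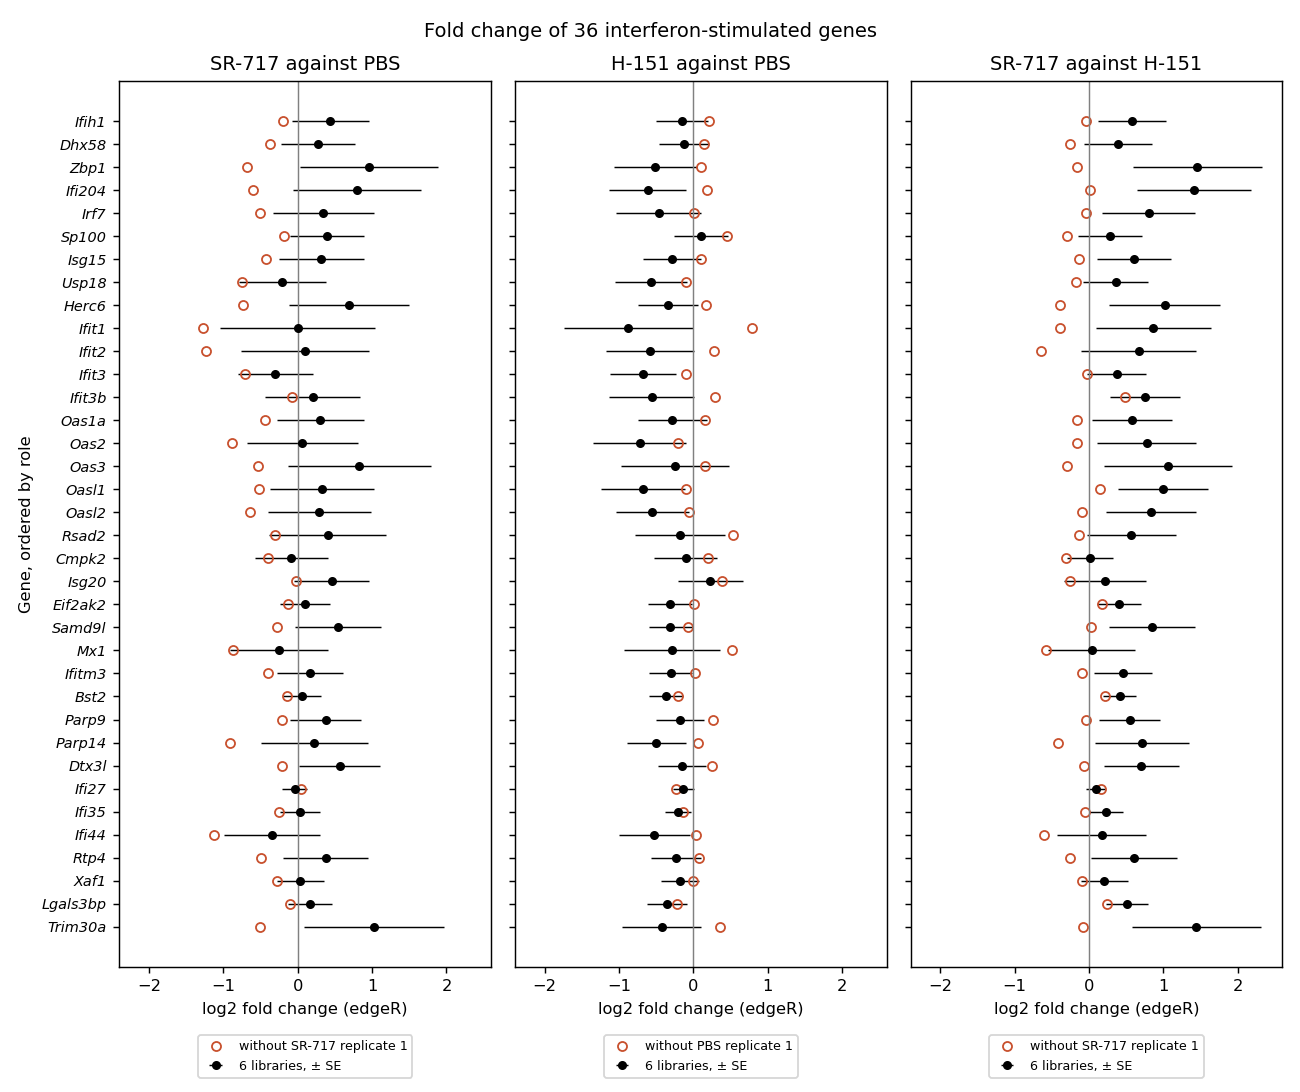
Log2 fold change of the 36 genes (rows, ordered by role) in the 3 comparisons, with filled points for edgeR's estimate over 6 libraries and bars for ± 1 standard error. Open points give the estimate without SR-717 replicate 1 (left and right) or without PBS replicate 1 (centre), and most of them lie on the other side of 0.

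Among the sensors of nucleic acid, Zbp1 spread most. Zbp1 binds left-handed nucleic acid and can trigger necroptosis. It stood at 30.2, 16.7 and 6.69 CPM in PBS replicates 1, 2 and 3, at 18.6, 11.2 and 7.62 CPM in the H-151 replicates, and at 81.6, 12.0 and 10.4 CPM in the SR-717 replicates. One SR-717 library was thus above all others and its group mates lay within the range of PBS. The log2 fold change of Zbp1 was 0.96 ± 0.93 (SE, n = 3 and 3) for SR-717 against PBS, -0.51 ± 0.56 for H-151 against PBS and 1.46 ± 0.87 for SR-717 against H-151. Without SR-717 replicate 1 the first and the last were -0.68 and -0.17. Without PBS replicate 1 the first was 1.56 and the second 0.10.

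Ifih1, which encodes the double-stranded RNA sensor MDA5, stood at 13.5, 8.84 and 5.62 CPM in the PBS replicates, at 10.3, 6.56 and 8.17 CPM in the H-151 replicates and at 21.5, 9.62 and 6.66 CPM in the SR-717 replicates. The groups overlapped in all comparisons. Its log2 fold change was 0.44 ± 0.52 (SE, n = 3 and 3) for SR-717 against PBS, -0.15 ± 0.35 for H-151 against PBS and 0.58 ± 0.46 for SR-717 against H-151. These became -0.19 and -0.044 for SR-717 without its replicate 1. Without PBS replicate 1, SR-717 against PBS gave 0.80 and H-151 against PBS gave 0.21. Dhx58, which encodes the related receptor LGP2, ranged from 7.08 to 23.8 CPM. Ifi204, a DNA sensor of the PYHIN family reported to act upstream of STING, ranged from 6.61 to 59.6 CPM.

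Irf7, the transcription factor that amplifies the interferon response, stood at 96.6, 67.0 and 23.04 CPM in the PBS replicates, at 72.2, 38.0 and 24.8 CPM in the H-151 replicates and at 149.2, 49.8 and 38.2 CPM in the SR-717 replicates. The order 1, 2, 3 of the library numbers was the same in each group. Its log2 fold change was 0.35 ± 0.68 (SE, n = 3 and 3) for SR-717 against PBS, -0.47 ± 0.57 for H-151 against PBS and 0.80 ± 0.62 for SR-717 against H-151. Without SR-717 replicate 1 the first and the last of these were -0.50 and -0.041. Without PBS replicate 1 the first was 0.81 and the second 0.0022. Sp100, a component of nuclear bodies, ranged from 20.5 to 80.5 CPM.

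Isg15 encodes a ubiquitin-like protein that is attached to other proteins, Herc6 encodes the main ligase of this reaction in the mouse, and Usp18 encodes the protease that removes ISG15 and also dampens the interferon receptor. Isg15 stood at 30.4, 20.5 and 10.7 CPM in the PBS replicates, at 22.1, 14.8 and 13.3 CPM in the H-151 replicates and at 46.2, 16.6 and 14.0 CPM in the SR-717 replicates. Usp18 stood at 21.9, 14.6 and 5.68 CPM in the PBS replicates, at 12.8, 7.64 and 7.89 CPM in the H-151 replicates and at 19.8, 10.00 and 6.72 CPM in the SR-717 replicates. Unlike Isg15, Usp18 was highest in a PBS library. For SR-717 against PBS the log2 fold change was 0.32 ± 0.57 for Isg15 (SE, n = 3 and 3) and -0.21 ± 0.58 for Usp18. For H-151 against PBS it was -0.29 ± 0.39 for Isg15 and -0.57 ± 0.48 for Usp18. For SR-717 against H-151 it was 0.60 ± 0.50 for Isg15 and 0.36 ± 0.44 for Usp18. Neither gene separated the groups. With SR-717 replicate 1 left out, Isg15 was at -0.42 against PBS and -0.14 against H-151, and Usp18 at -0.75 and -0.18. Without PBS replicate 1, H-151 against PBS gave 0.10 for Isg15 and -0.10 for Usp18. In that refit SR-717 against PBS gave 0.71 for Isg15 and 0.26 for Usp18. Herc6 ranged from 3.54 to 21.9 CPM.

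The 4 Ifit genes lie in one cluster on chromosome 19, on the plus strand between bases 34550694 and 34650009 of GRCm38 in the GENCODE annotation, and encode RNA-binding proteins with tetratricopeptide repeats. Ifit1, whose promoter carries both matches shown above, stood at 12.4, 1.90 and 1.41 CPM in the PBS replicates, at 3.97, 1.33 and 3.22 CPM in the H-151 replicates and at 11.3, 2.25 and 2.10 CPM in the SR-717 replicates. The levels in PBS replicate 1 and SR-717 replicate 1 were close, and the other 7 libraries were at 3.97 CPM or less. The log2 fold change of Ifit1 was -0.0032 ± 1.04 (SE, n = 3 and 3) for SR-717 against PBS, -0.87 ± 0.87 for H-151 against PBS and 0.86 ± 0.77 for SR-717 against H-151. Without PBS replicate 1 the value for H-151 against PBS was 0.78. Without SR-717 replicate 1 the values for SR-717 were -1.27 against PBS and -0.39 against H-151. With PBS replicate 1 left out instead, SR-717 against PBS gave 1.65.

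Ifit3 stood at 59.6, 28.9 and 19.2 CPM in the PBS replicates, at 28.6, 14.6 and 23.8 CPM in the H-151 replicates and at 43.3, 27.2 and 16.8 CPM in the SR-717 replicates. The highest library was PBS replicate 1. Its log2 fold change was -0.30 ± 0.51 (SE, n = 3 and 3) for SR-717 against PBS, -0.68 ± 0.44 for H-151 against PBS and 0.37 ± 0.40 for SR-717 against H-151. Its neighbour Ifit3b, with the same promoter stretch, ranged from 3.11 to 12.7 CPM and Ifit2 from 2.51 to 16.8 CPM. All 4 Ifit genes had a log2 fold change below 0 for H-151 against PBS, from -0.87 to -0.56, and above 0 for SR-717 against H-151, from 0.37 to 0.86, without passing the test. These directions rested on single libraries. Without PBS replicate 1, H-151 against PBS gave 0.78 for Ifit1, 0.28 for Ifit2, 0.30 for Ifit3b and -0.10 for Ifit3. With SR-717 replicate 1 left out, SR-717 against H-151 gave -0.39 for Ifit1, -0.65 for Ifit2, -0.027 for Ifit3 and 0.49 for Ifit3b. For Ifit3, SR-717 against PBS gave -0.71 without SR-717 replicate 1 and 0.27 without PBS replicate 1.

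The oligoadenylate synthetases make the short oligoadenylates that activate RNase L, and the genes of Oas2, Oas3 and Oas1a lie on the minus strand of chromosome 5 between bases 120730333 and 120907521 of GRCm38. Oas2 stood at 27.5, 18.6 and 5.45 CPM in the PBS replicates, at 17.4, 6.26 and 7.56 CPM in the H-151 replicates and at 35.1, 10.0 and 8.70 CPM in the SR-717 replicates. Oasl1, an enzymatically inactive relative that limits the translation of Irf7 mRNA, stood at 18.8, 10.9 and 4.33 CPM in the PBS replicates, at 11.0, 4.83 and 5.34 CPM in the H-151 replicates and at 26.8, 9.15 and 6.60 CPM in the SR-717 replicates. For both genes the library numbered 1 was the highest of its group. For SR-717 against PBS the log2 fold change was 0.06 ± 0.74 for Oas2 (SE, n = 3 and 3) and 0.32 ± 0.70 for Oasl1. For H-151 against PBS it was -0.72 ± 0.63 for Oas2 and -0.68 ± 0.56 for Oasl1. For SR-717 against H-151 it was 0.77 ± 0.66 for Oas2 and 0.99 ± 0.61 for Oasl1. None of these passed the test over the 6 libraries compared without a replicate block. Without PBS replicate 1 the values for H-151 against PBS were -0.21 for Oas2 and -0.11 for Oasl1, while without PBS replicate 3 both genes passed an unadjusted p of 0.05 and 1.5-fold in edgeR. With SR-717 replicate 1 left out, Oas2 was at -0.88 against PBS and -0.16 against H-151, and Oasl1 at -0.53 and 0.15. With PBS replicate 1 left out, SR-717 against PBS gave 0.58 for Oas2 and 0.90 for Oasl1. Oas3 had the widest spread of the 36 genes, from 4.95 CPM in PBS replicate 3 to 89.0 CPM in SR-717 replicate 1, an 18.0-fold range. Oas1a ranged from 14.5 to 66.3 CPM and Oasl2 from 22.1 to 129.8 CPM.

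Rsad2 encodes viperin, which converts CTP into a chain-terminating nucleotide, and its neighbour on chromosome 12, Cmpk2, encodes a mitochondrial nucleotide kinase. Rsad2 stood at 35.98, 19.0 and 5.79 CPM in the PBS replicates, at 25.1, 16.3 and 12.2 CPM in the H-151 replicates and at 47.4, 23.9 and 8.82 CPM in the SR-717 replicates. The order of the library numbers was again the same in each group. For Rsad2 the log2 fold change was 0.40 ± 0.79 (SE, n = 3 and 3) for SR-717 against PBS, -0.18 ± 0.61 for H-151 against PBS and 0.57 ± 0.60 for SR-717 against H-151. Leaving out SR-717 replicate 1 gave -0.31 and -0.13 for the first and the last. Leaving out PBS replicate 1 gave 1.11 for the first and 0.53 for the second. Cmpk2 ranged from 6.24 to 20.6 CPM. The exonuclease gene Isg20 ranged from 5.89 to 22.6 CPM, Eif2ak2, which encodes the kinase PKR, from 8.78 to 19.1 CPM, and Samd9l from 15.8 to 79.4 CPM.

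**Figure D3:**
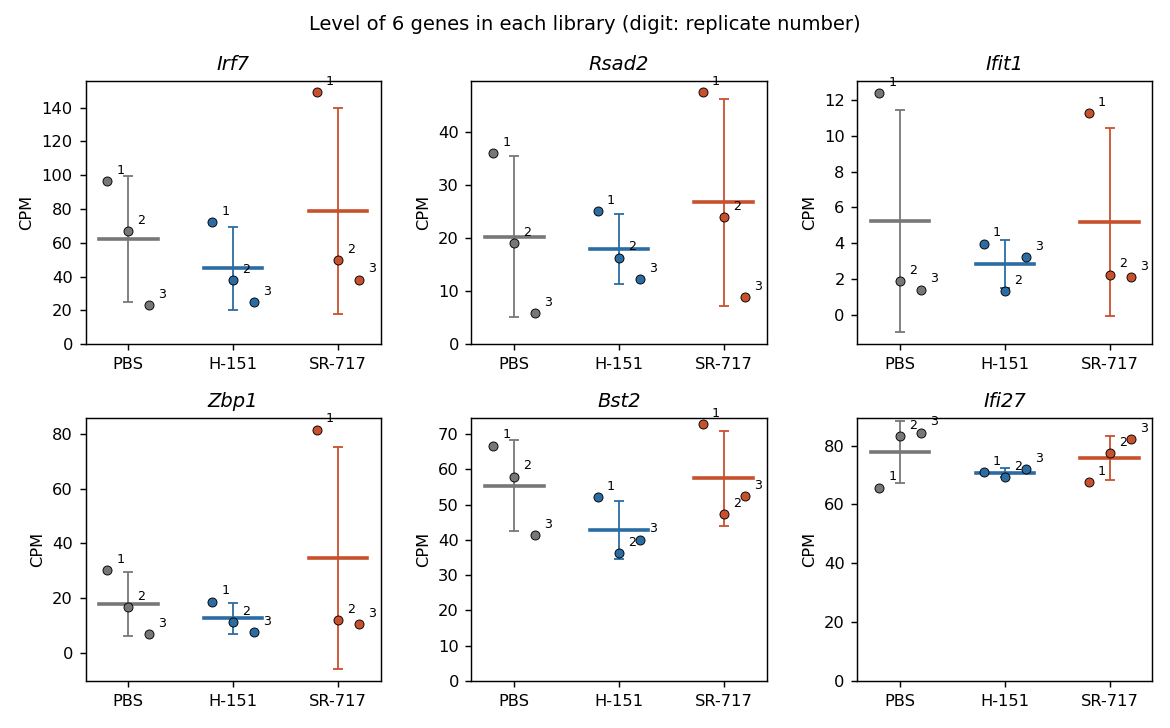
Level in CPM (linear axis) of Irf7, Rsad2, Ifit1, Zbp1, Bst2 and Ifi27 in each library, marked with its replicate number, with a horizontal bar for the group mean and an error bar for the SD (n = 3). The groups overlap in all panels, and in the first 5 panels the library numbered 1 is the highest of its group.

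Mx1 encodes a dynamin-like GTPase that traps viral ribonucleoproteins, and the C57BL/6J strain carries an inactive allele of it. It stood at 9.71, 3.76 and 2.19 CPM in the PBS replicates, at 7.31, 2.42 and 3.00 CPM in the H-151 replicates and at 7.44, 2.96 and 2.74 CPM in the SR-717 replicates. The library numbered 1 was far above its group mates in all groups. For Mx1 the log2 fold change was -0.25 ± 0.66 (SE, n = 3 and 3) for SR-717 against PBS, -0.29 ± 0.65 for H-151 against PBS and 0.03 ± 0.58 for SR-717 against H-151. Leaving out SR-717 replicate 1 gave -0.88 and -0.58 for the first and the last. Leaving out PBS replicate 1 gave 0.55 for the first and 0.51 for the second.

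Ifitm3 stood at 325.8, 217.0 and 156.4 CPM in the PBS replicates, at 226.3, 183.9 and 154.6 CPM in the H-151 replicates and at 428.8, 174.4 and 180.1 CPM in the SR-717 replicates. Bst2, which encodes tetherin, the protein that holds budding virus at the cell surface, stood at 66.8, 58.0 and 41.4 CPM in the PBS replicates, at 52.2, 36.3 and 40.1 CPM in the H-151 replicates and at 72.7, 47.4 and 52.3 CPM in the SR-717 replicates. Bst2 had the smallest unadjusted p of the 36 genes in 2 of the 3 comparisons. Its log2 fold change was 0.05 ± 0.25 (SE, n = 3 and 3) for SR-717 against PBS, -0.37 ± 0.22 for H-151 against PBS and 0.41 ± 0.22 for SR-717 against H-151. That of Ifitm3 was 0.16 ± 0.44, -0.31 ± 0.29 and 0.46 ± 0.39 in the same order. The groups overlapped for both genes. With SR-717 replicate 1 left out, Bst2 was at -0.15 against PBS and 0.21 against H-151, and Ifitm3 at -0.40 and -0.096. For H-151 against PBS the values without PBS replicate 1 were -0.20 for Bst2 and 0.021 for Ifitm3. For SR-717 against PBS they were 0.21 for Bst2 and 0.48 for Ifitm3.

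The remaining genes are given by their ranges. Parp9 and Dtx3l, which encode partners in one ADP-ribosylation and ubiquitin ligase complex, ranged from 17.2 to 51.6 CPM and from 16.2 to 63.6 CPM, and Parp14 ranged from 22.8 to 117.3 CPM. Trim30a, a gene of the tripartite motif family, ranged from 9.23 to 103.1 CPM, Rtp4 from 12.9 to 54.2 CPM, and Lgals3bp, which encodes a secreted glycoprotein, from 108.0 to 264.1 CPM. Ifi44 ranged from 1.34 to 7.08 CPM, Xaf1 from 7.30 to 14.6 CPM and Ifi35 from 23.7 to 41.9 CPM. Ifi27 was the flattest of all, at 65.7 to 84.5 CPM, a 1.29-fold range, and was lowest rather than highest in PBS replicate 1.

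The replicate number accounted for more of the variation of these genes than the treatment. This comparison was made after the values were seen. In an additive edgeR fit of all 9 libraries with treatment and replicate number, 33 of the 36 genes fell under an unadjusted p of 0.05 for the number, against 17.1% of all 14294 genes. The exceptions were Ifi35 (adjusted p = 0.373), Samd9l (adjusted p = 0.347) and Ifi27 (adjusted p = 0.47). None of the 36, and none of all genes, had an adjusted p under 0.05, the smallest being 0.179, and no other tool was run for this term. For treatment in the same fit, 1 of the 36 genes, Lgals3bp, had an unadjusted p under 0.05 (edgeR adjusted p = 0.998), against 2.67% of all genes, and 0 had an adjusted p under 0.05.

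Of the variance of log2 CPM over the libraries, the median share between numbers was 73.4% for the 36 genes and 39.6% for all genes. The median share between treatments was 10.1% and 14.7%. The share between numbers was the larger in 36 of the 36 genes and in 76.9% of all genes. It was highest for Mx1 (91.9%, with 1.23% between treatments) and lowest for Samd9l (43.6%). The treatment share was highest for Bst2 (33.4%) and Lgals3bp (30.0%). These shares were not computed without SR-717 replicate 1 and PBS replicate 1, the libraries that stand apart, which are both numbered 1. The library numbered 1 was the highest of its group in all 3 groups for 31 of the 36 genes (11.2% of all genes), and the library numbered 3 was the lowest in all 3 for 12 (7.98%).

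**Figure D4:**
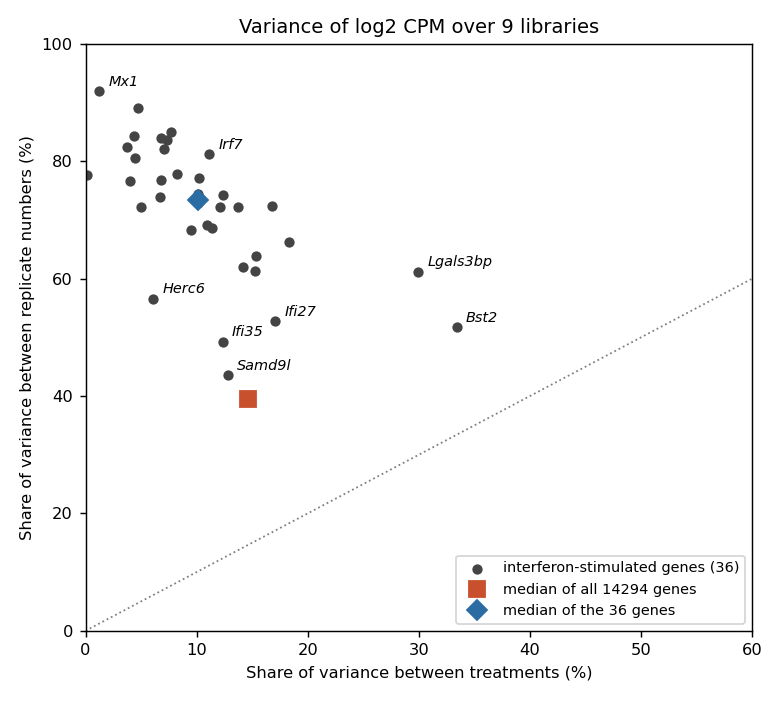
Share of the variance of log2 CPM between replicate numbers (vertical axis, %) against the share between treatments (horizontal axis, %) for each of the 36 genes over 9 libraries, with the median of the 36 genes and of all 14294 genes. Every point lies above the dotted line of equal shares, with Bst2 and Lgals3bp farthest to the right.

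The count of 33 genes under an unadjusted p of 0.05 for the number in edgeR also leaned on the libraries numbered 1. Without SR-717 replicate 1 it was 27 of 36 (9.17% of all genes) and without PBS replicate 1 it was 26 (9.38%). Without both, 9 of the 36 had an unadjusted p under 0.05 in edgeR (4.88%), and with the libraries numbered 2 and 3 alone 7 did (7.01%). Without H-151 replicate 1, 8 of the 36 genes had an adjusted p under 0.05 in edgeR, as did 455 of 14515 genes. The labels do not say whether the numbers mark a day, an operator or an order of collection, and the part of any of these was not tested.

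Of 8 genes of the STING arm upstream of interferon, 4 had an unadjusted p under 0.05 for the replicate number in edgeR (17.1% of all genes). None passed that p together with at least 1.5-fold in any comparison between treatments. Sting1, the target of both compounds, stood at 58.0, 36.5 and 31.6 CPM in the PBS replicates, at 48.1, 41.9 and 30.1 CPM in the H-151 replicates and at 89.6, 38.4 and 42.3 CPM in the SR-717 replicates. Sting1 was named after its values were seen.

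Some markers of other cells moved with the numbers too, and in bulk tissue fewer cells of a type and less RNA per cell cannot be told apart. Of all genes, 17.1% had an unadjusted p under 0.05 for the number in edgeR. All 8 neutrophil markers did, as did 14 of 14 NF-κB targets, 6 of 6 erythroid markers and 5 of 7 macrophage markers. Of other lists, 4 of 6 osteoclast, 4 of 7 T and NK cell, 3 of 6 B cell, 1 of 6 bone, 1 of 6 cartilage, 1 of 5 endothelial, 0 of 3 keratinocyte and 0 of 6 skeletal muscle markers did. Erythroid markers were highest in the library numbered 2 of each group (mean log2 CPM of 7.58 in PBS, 7.96 in H-151 and 7.38 in SR-717), whereas the 36 genes were highest in the library numbered 1. The neutrophil markers together reached 13700 CPM in SR-717 replicate 1. They ranged from 540 to 3330 CPM in the PBS group, from 1220 to 4310 CPM in the H-151 group and from 2360 CPM upwards in the SR-717 group. Macrophage markers summed to 928 to 1500 CPM in PBS, 953 to 1190 CPM in H-151 and 1180 to 2220 CPM in SR-717 libraries, and no neutrophil or macrophage marker was at 0 in any library. Plasmacytoid dendritic cells are strong producers of type I interferon. Their marker Siglech ranged from 0.169 to 4.45 CPM and Ccr9 from 0 to 0.571 CPM, and 1 of 5 of their markers passed that p for the number. The 6 markers summed to 40.7 to 118 CPM in PBS, 82.4 to 132 CPM in H-151 and 47.6 to 145 CPM in SR-717 libraries, but Cox6a2, which striated muscle also expresses, made up most of this sum (26.4 to 134.9 CPM). NF-κB targets had a mean log2 CPM of 7.08 in SR-717 replicate 1 and 5.52 in PBS replicate 1, and of 2.26 to 3.30 in the other libraries. The part of these cells and signals in the levels of the 36 genes was not tested.

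SR-717 replicate 1 and PBS replicate 1, the libraries that stand apart, were set side by side as single libraries, without a test. The median ratio of SR-717 replicate 1 to PBS replicate 1 was 1.42 for the 36 genes and 1.01 for all genes. It was at least 2 for 6 genes, namely Zbp1 (2.70), Oas3 (2.64), Trim30a (2.56), Herc6 (2.26), Samd9l (2.12) and Ifi204 (2.11). It was below 1 for 8, among them Ifit1 (0.909), Usp18 (0.905), Mx1 (0.766) and Ifit3 (0.726). The 36 genes thus did not differ between these libraries by 1 common factor. Among genes that interferon gamma also induces, Cxcl9 stood at 107.6 CPM in SR-717 replicate 1 and at 9.19 CPM or less elsewhere, and Cxcl10 at 142.6 CPM and at 27.6 CPM or less. Both were named after their values were seen. From the same list, Irf1 stood at 223.6 CPM and at 70.8 CPM or less, and Socs1 at 29.6 CPM and at 21.8 CPM or less. Ido1 was at 0.171 CPM or less in every library. Of 7 genes of this list in the fit, 3 had an unadjusted p under 0.05 for the replicate number in edgeR (17.1% of all genes).

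**Figure D5:**
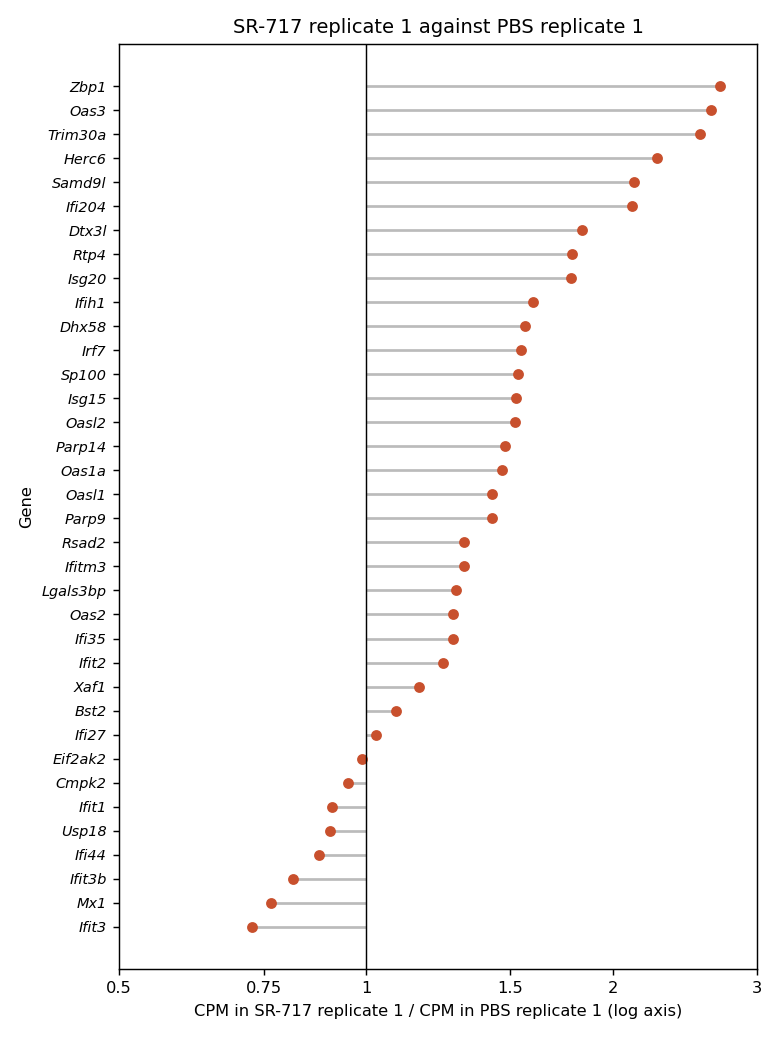
Ratio of the level (CPM) in SR-717 replicate 1 to that in PBS replicate 1 for each of the 36 genes, on a log axis, with a line at 1. Zbp1, Oas3 and Trim30a lie above 2.5, whereas 8 genes, down to Ifit3 at 0.726, lie below 1.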

How the data were processed

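Callus RNA was measured in 9 libraries that came from poly(A) RNA and were sequenced paired-end with strand information. The authors deposited an expected count and a TPM value per gene. Expected counts are estimates, not normalized, that need not be whole (8.91% were not), and TPM was scaled by the authors for gene length and library total. The submitters' processing notes name the build mm10, and the aligner and counter are not given in the sources used here. Whether counting used strand is not stated either, so overlapping genes are uncertain. Groups came from the sample labels.

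Expected counts were rounded and compared in R 4.3.3 by edgeR 4.0.16 (low counts removed by filterByExpr at a minimum of 10, TMM, quasi-likelihood test, Benjamini-Hochberg adjustment) on the 6 libraries compared, without covariates. Standard errors of edgeR's log2 fold changes were derived as the absolute log2 fold change divided by the square root of the quasi-likelihood F statistic. CPM values were scaled to a common library total with TMM factors. Genes were counted at an unadjusted p under 0.05 with at least 1.5-fold, and at an adjusted p under 0.05. DESeq2 1.42.0, limma 3.58.1 (voom with sample quality weights), other filters and scalings, a replicate block and each library left out were alternatives. Scripts were tested on simulated data. The 13 genes given with full statistics (1 to 3 from each of 7 of the 9 roles), the marker lists and the 36 genes were chosen with earlier results of these data known. After subtracting group means, libraries with the same number correlated at r = 0.65, 0.34 and 0.14 between SR-717 and PBS (numbers 1, 2 and 3). They correlated at 0.30, 0.49 and 0.50 between H-151 and PBS and at 0.34, 0.06 and 0.08 between SR-717 and H-151. Only 3 of 9 libraries correlated best with their own number in both other groups. The replicate block rests on the labels' replicate numbers, and whether same-numbered libraries were paired by design is not stated. Results that need 1 pathway gene outside the 36 are not reported here.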

Additional observations from a re-analysis of the deposited data

How the results depend on the processing

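With 3 libraries in a group and SR-717 replicate 1 apart from its group, the median standard error of the 36 genes (0.43 to 0.58 on the log2 scale) limits which changes could be detected. Of 546 values of the 13 fully described genes under the alternatives, 480 kept their direction, 66 reversed it, 44 of them by leaving out 1 library, and 0 came under an adjusted p of 0.05.

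limma voom with sample quality weights turned the median log2 fold change of the 36 genes to -0.16 for SR-717 against PBS and -0.068 for SR-717 against H-151. For SR-717 against PBS it gave Isg15 -0.18, Irf7 -0.10, Oas2 -0.46, Oasl1 -0.12, Zbp1 -0.25, Ifitm3 -0.30 and Bst2 -0.14. For SR-717 against H-151 it gave Isg15 -0.10, Usp18 -0.075, Irf7 -0.015, Ifit1 -0.13, Oas2 -0.068, Mx1 -0.52, Zbp1 -0.14 and Ifitm3 -0.14. For H-151 against PBS it gave Rsad2 0.34 and Mx1 0.0022. The weight that voom gave to each library was not recorded, and the cause of these changes was not tested further.

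With the replicate block, Ifit1 was at 0.20 for SR-717 against PBS and Rsad2 at 0.074 for H-151 against PBS. In a block fit of all 9 libraries, chosen after seeing the data, Ifit1 was at 0.15 and Oas2 at -0.022 for SR-717 against PBS, and Rsad2 at 0.12 for H-151 against PBS. For SR-717 against H-151, the deviations of same-numbered libraries correlated at 0.34, 0.06 and 0.08 (numbers 1, 2 and 3). There the block put 5 of the 36 genes under an unadjusted p of 0.05 in edgeR (1.22% of all genes), of which 3 passed the thresholds (Irf7, Oas2 and Oasl1) and Bst2 and Lgals3bp did not. The 9-library block gave 4 (3.44% of all genes) and 2 (Irf7 and Oasl1), again with Bst2 and Lgals3bp by p alone. For H-151 against PBS it put Bst2 under that p (1.64% of all genes). Over all groups, 3 of 9 libraries correlated best with their own number. Besides these and Rsad2 for SR-717 against PBS, neither block brought any of the 36 genes under an unadjusted p of 0.05, or any under an adjusted one.

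Genes past the thresholds numbered 73 for SR-717 against PBS. They numbered 41 at 2-fold, 138 with DESeq2, 267 with voom, 194 without a filter, 37 at a mean count of at least 50, 176 with all 9 libraries, 443 with the block and 440 with the 9-library block. For H-151 against PBS they numbered 60, and 33 at 2-fold, 144 with voom, 127 without a filter, 28 at a mean count of at least 50, 262 with the block and 181 with the 9-library block. For SR-717 against H-151 they numbered 107, and 69 at 2-fold, 209 with DESeq2, 474 with voom, 223 without a filter, 61 at a mean count of at least 50, 171 with all 9 libraries and 341 with the 9-library block. Leaving out 1 library gave 95 to 319, 43 to 698 and 64 to 661 in the 3 comparisons.

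Leaving out 1 library moved the median of the 36 genes from -0.44 to 0.74 for SR-717 against PBS, from -0.61 to 0.10 for H-151 against PBS and from -0.12 to 0.89 for SR-717 against H-151. The genes lower past the thresholds numbered 0 to 6 for H-151 against PBS, and those higher 0 to 4 for SR-717 against H-151. For SR-717 against PBS the log2 fold change ranged from -0.42 to 0.71 for Isg15, -0.75 to 0.26 for Usp18, -0.50 to 0.81 for Irf7, -1.27 to 1.65 for Ifit1, -0.71 to 0.27 for Ifit3, -0.88 to 0.58 for Oas2 and -0.53 to 0.90 for Oasl1. It ranged from -0.31 to 1.11 for Rsad2, -0.88 to 0.55 for Mx1, -0.68 to 1.56 for Zbp1, -0.19 to 0.80 for Ifih1, -0.40 to 0.48 for Ifitm3 and -0.15 to 0.21 for Bst2. In this comparison each gene was lowest without SR-717 replicate 1 and highest without PBS replicate 1. For H-151 against PBS it ranged from -0.60 to 0.10 for Isg15, -0.99 to 0.0022 for Irf7, -1.32 to 0.78 for Ifit1, -0.62 to 0.53 for Rsad2, -0.94 to 0.51 for Mx1, -0.92 to 0.10 for Zbp1, -0.41 to 0.21 for Ifih1 and -0.53 to 0.021 for Ifitm3, and below 0 throughout for Usp18 (-0.95 to -0.10), Ifit3 (-0.98 to -0.10), Oas2 (-1.32 to -0.21), Oasl1 (-1.16 to -0.11) and Bst2 (-0.54 to -0.20). For SR-717 against H-151 it ranged from -0.14 to 0.90 for Isg15, -0.18 to 0.65 for Usp18, -0.041 to 1.33 for Irf7, -0.39 to 1.24 for Ifit1, -0.027 to 0.65 for Ifit3, -0.16 to 1.37 for Oas2, -0.13 to 0.98 for Rsad2, -0.58 to 0.69 for Mx1, -0.17 to 1.89 for Zbp1, -0.044 to 0.89 for Ifih1 and -0.10 to 0.68 for Ifitm3, and above 0 throughout for Oasl1 (0.15 to 1.47) and Bst2 (0.21 to 0.58). For the replicate number, 33 of the 36 genes fell under an unadjusted p of 0.05 in edgeR. Leaving out 1 library gave 26 to 33, leaving out SR-717 and PBS replicate 1 together 9, and the libraries numbered 2 and 3 alone 7, all chosen after seeing the data.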
